A study of Homo sapiens with 4 samples.

Results

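The RNAs described here are those of 10 glycolytic enzyme genes, taken from a list of names by a rule that uses no measured value, although the list was drawn up with earlier results of these data known: *HK2*, *GPI*, *PFKP*, *ALDOA*, *TPI1*, *GAPDH*, *PGK1*, *PGAM1*, *ENO1* and *LDHA*. All 10 were found among the 63677 genes of the count table by their Ensembl identifiers, and all 10 were among the 14645 genes with enough counts to be tested. The data are native RNA immunoprecipitation sequencing (RIP-seq) from nuclei of HCT116, a human colorectal carcinoma cell line, transfected for 48 h with a plasmid encoding ORC1 with a 3xFLAG tag, as were the cells of both groups compared. ORC1 belongs to the origin recognition complex, the protein assembly that marks replication origins. The IP group holds 2 libraries of RNA recovered with an anti-FLAG antibody without crosslinking, and the Input group holds 2 libraries of RNA from the same nuclear lysates before precipitation, with replicate numbers 1 and 2 in each group. With neither untransfected cells nor a control antibody among these libraries, they do not measure recovery without ORC1-FLAG. The paper reports that control IgG gave no detectable RNA beside its anti-ORC1 RIP. In its crosslinked assay (iCLIP), it reports that anti-FLAG recovered only negligible RNA from cells without the tagged protein. No spike-in RNA is described, so a level here is a share of what was sequenced in that library, not an amount.

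Glycolysis splits glucose into pyruvate in the cytosol, with an early phase that spends ATP (hexokinase to aldolase and triosephosphate isomerase) and a late phase that regains it (glyceraldehyde-3-phosphate dehydrogenase to pyruvate kinase). Lactate dehydrogenase then reduces pyruvate to lactate and restores NAD+, and cancer cell lines often run the pathway at a high rate in the presence of oxygen. Its mRNAs are abundant in most cultured cells, and *GAPDH* is a common reference RNA, which the study also used to normalise qPCR of total and cytoplasmic extracts.

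The IP libraries had 27483148 (replicate 1) and 20280445 (replicate 2) counts in total, the Inputs 14677002 and 9213877. The 10 genes held from 669 (*PGAM1*) to 118201 (*ENO1*) counts per library, so counting error was small beside the spread between libraries. Summed over the 10 genes, they took 1.01% of the counts in each IP library and 1.40% and 1.57% in the Inputs. Levels are given as CPM, counts scaled to a common library total with TMM factors, which align the bulk of genes between libraries. On that scale the 10 genes summed to 13303 and 11660 CPM in the IPs against 11783 and 12389 CPM in the Inputs, which overlapped. The lower raw shares in IP are thus not a lower scaled level of the 10 genes together. The transfected gene, *ORC1*, had 1108 and 18551 CPM in the IPs against 333 and 5063 CPM in the Inputs, so replicate 2 exceeded replicate 1 by 16.7-fold and 15.2-fold. Any other difference between the replicates cannot be told apart from this one. The paper describes the ORC1 coding sequence of its plasmids as codon-optimized. How much of the plasmid's RNA, as against the cell's own, was counted as *ORC1* is not known. Of 6 epithelial markers, 5 were tested, and the sum of the 6 was 2313 and 2526 CPM in Input and 4510 and 4127 CPM in IP (replicates 1 and 2), while *VIL1* had 9 counts in all. Of 12 markers of blood, stromal, endothelial and liver cells, 9 had a count, *CD3E*, *DCN* and *PECAM1* were at 0 in every library, and their sum was 8.59 and 12.7 CPM in Input and 23.3 and 30.3 CPM in IP, most of it *COL1A1*. Whether the marker levels bear on the glycolytic RNAs was not tested. In RNA from many cells, fewer cells with an mRNA and less of it per cell cannot be told apart.

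The sequences below bear on which reads these genes could receive. Processed pseudogenes, copies of an mRNA written back into the genome, lie close to several of these coding sequences. GENCODE v44 names 65 for *GAPDH*, 13 for *PGAM1*, 6 for *LDHA*, 4 each for *TPI1* and *ENO1*, 2 each for *ALDOA* and *PGK1*, 1 for *HK2* and 0 for *GPI* and *PFKP*. The treatment of reads that align in several places is not stated for the counts. The 2 pairs shown are those of the most counted pseudogenes, LDHAP4 (chromosome 9 from 14921337 to 14922334, minus strand, GRCh38) and GAPDHP1 (chromosome X from 39787132 to 39788136, minus strand). Each line gives the first 90 coding bases that align without a gap, on the strand of the mRNA, with bases that differ within the pair in capitals.
LDHA: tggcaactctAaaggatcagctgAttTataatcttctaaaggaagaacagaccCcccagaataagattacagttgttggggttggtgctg
LDHAP4: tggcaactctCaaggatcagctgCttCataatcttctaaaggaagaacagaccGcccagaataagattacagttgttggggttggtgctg
GAPDH: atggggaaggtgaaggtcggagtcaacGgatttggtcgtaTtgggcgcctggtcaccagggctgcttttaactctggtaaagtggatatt
GAPDHP1: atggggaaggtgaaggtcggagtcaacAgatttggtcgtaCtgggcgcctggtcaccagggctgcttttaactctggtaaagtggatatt

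Counted from 1 at the A of the start codon, LDHAP4 differs from *LDHA* by A12C, A25C, T28C and C55G in this stretch, and GAPDHP1 from *GAPDH* by G28A and T41C. Over the whole alignment, 95.7% of positions were identical for LDHAP4 and 95.9% for GAPDHP1, and the longest runs without a difference were 107 and 93 bases. LDHAP4 held 279 and 201 counts in IP and 376 and 238 in Input. Its log2 ratios of IP to Input were -0.66 and -0.81, beside -0.69 and -0.84 for *LDHA* itself. GAPDHP1 held 126 and 82 counts in IP and 64 and 62 in Input, with ratios of 0.65 and -0.17, where those of *GAPDH* were -0.29 and -0.49. All pseudogenes named after *GAPDH* together held between 0.237% (Input replicate 1) and 0.814% (Input replicate 2) of the counts of the gene and its copies. Those of *LDHA* held 1.93% to 2.06%, and those of *PGAM1* 0.857% to 3.18%. The most counted pseudogenes of the other genes were sparse, with 13 to 30 counts per library for TPI1P1, 2 to 16 for HK2P1, 1 to 15 for ENO1P3, 3 to 7 for PGAM1P7 and 0 to 2 for PGK1P1. Adding these counts to their parent genes changed no call and no sign among the 10 genes.

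The primers with which the study measured *GAPDH* RNA by qPCR are shown because they mark the part of the reference RNA that such an assay reads. Both are given 5′ to 3′.
GAPDH forward: agccacatcgctcagacac
GAPDH reverse: gcccaatacgaccaaatcc

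In the canonical transcript of *GAPDH* the forward primer matches bases 57 to 75, just before the start codon at base 77, and the reverse primer is the complement of coding bases 28 to 46. The amplicon is 66 bases long. Both primer sites were found without a mismatch in the annotated sequence of 0 of the 65 *GAPDH* pseudogenes, and 1 of the 2 sites in 2 of them. The forward site lies before the start codon, so a pseudogene annotated only from its start codon on could not hold it. The genome beside the annotated pseudogenes was not searched, so the 0 does not show whether the assay could read them. The reverse primer covers both positions at which GAPDHP1 differs from *GAPDH* in the stretch above.

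IP was set against Input to find RNAs that come down with ORC1-FLAG. A gene was called enriched or depleted where edgeR's quasi-likelihood test gave a p, adjusted by Benjamini and Hochberg, under 0.05 and the log2 fold change was beyond 1 or -1. None of the 10 glycolytic RNAs was called in edgeR, nor in DESeq2 or limma voom, while 10.5% of all genes tested were enriched and 8.30% depleted in edgeR. By the adjusted p alone, 1 of the 10 passed, *TPI1*, which was lower in IP, against 22.9% of all genes in either direction and 9.96% lower in IP. Without correction, *TPI1* and *LDHA* had a p below 0.05 (0.00884 and 0.0217), 2 of the 10 genes against 38.8% of all genes tested. The log2 fold changes ran from -0.92 (*TPI1*) to 0.56 (*PFKP*), with a median of -0.01 beside 0.01 over all genes tested. The IP libraries lay above both Inputs for 4 genes (*HK2*, *PFKP*, *PGK1* and *ENO1*) and below both for 3 (*TPI1*, *GAPDH* and *LDHA*), where 33.2% and 31.9% of all genes did so, and overlapped for *GPI*, *ALDOA* and *PGAM1*. Scaling by library size alone moved the median of all genes to -0.59 and put the fitted values of the 4 higher genes below 0, between -0.14 and -0.046, and upper-quartile scaling moved the median to -0.16 without turning any of the 7. With the replicate number as a block, 5 of the 10 passed the adjusted p in edgeR (*HK2* at 0.50, *PFKP* at 0.57, *PGK1* at 0.56, *LDHA* at -0.76 and *TPI1* at -0.92 on the log2 scale), against 54.3% of all genes, and still none reached the fold change minimum, which 13.4% of all genes passed in each direction.

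**Figure D1:**
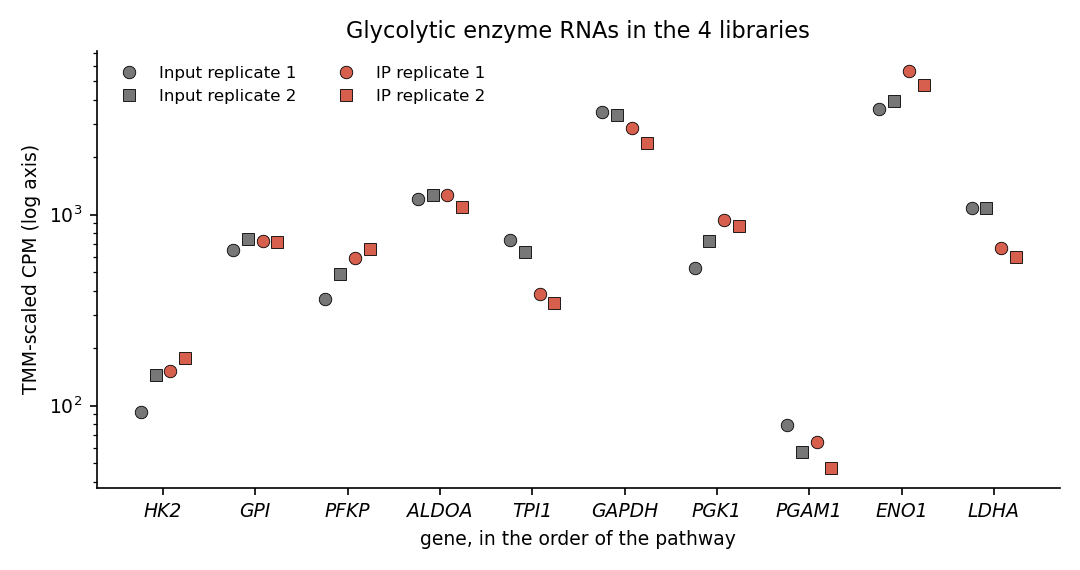
Level of each glycolytic enzyme RNA in the 4 libraries in TMM-scaled CPM on a log axis, with genes in the order of the pathway. Grey points are Inputs and red points IPs, circles replicate 1 and squares replicate 2. *TPI1*, *GAPDH* and *LDHA* lie lower in both IPs than in both Inputs, *HK2*, *PFKP*, *PGK1* and *ENO1* higher. In the fit scaled by library size alone, the fitted log2 fold changes of the 4 higher genes were slightly below 0.

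In the early phase, *HK2* encodes hexokinase 2, which traps glucose in the cell as glucose 6-phosphate (ENSG00000159399, chromosome 2 from 74834127 to 74893359, GRCh38 in GENCODE v44, as all positions here). It had 151 and 178 CPM in IP replicates 1 and 2, and 92.6 and 144 CPM in the Inputs. The 4 values did not overlap between groups, but the lower IP and the higher Input were close. In edgeR *HK2* differed by 0.47 ± 0.29 on the log2 scale (SE, 2 libraries in each group, adjusted p = 0.267), with a 95% interval from -0.21 to 1.15.

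*GPI*, glucose-6-phosphate isomerase (ENSG00000105220, chromosome 19 from 34359480 to 34402413), had 729.9 and 715 CPM in the IPs against 652 and 743 CPM in the Inputs. Both IP values fell between the Inputs. Its log2 fold change of 0.05 ± 0.26 (SE, adjusted p = 0.906 in edgeR) was among those nearest to 0, and its 95% interval of -0.55 to 0.65 lay inside the fold change minimum on both sides. It was under 0 when library size alone (-0.55) or the upper quartile (-0.12) set the scale, without Input replicate 1 (-0.07) and with the *ORC1* row left out (-0.03).

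*PFKP* encodes the platelet type of phosphofructokinase, the enzyme of the committed step (ENSG00000067057, chromosome 10 from 3066333 to 3137718). It had 591 and 664 CPM in the IPs against 364 and 490.1 CPM in the Inputs, and both IPs were above both Inputs. At 0.56 ± 0.27 (SE, adjusted p = 0.182 in edgeR) it had the highest log2 fold change of the 10, at the 72.7th percentile of all genes tested.

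*ALDOA*, aldolase A, cleaves fructose 1,6-bisphosphate (ENSG00000149925, chromosome 16 from 30064164 to 30070457). Its levels of 1267 and 1098 CPM in the IPs against 1214 and 1273 CPM in the Inputs overlapped. The log2 fold change was -0.07 ± 0.27 (SE, adjusted p = 0.869 in edgeR, 95% interval -0.71 to 0.56), and 0.03 without IP replicate 2. A gene on its own strand, not in the count table, covers 42.8% of its annotated exonic bases.

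*TPI1*, triosephosphate isomerase, interconverts the products of that cleavage (ENSG00000111669, chromosome 12 from 6867119 to 6870948). It had 383 and 343 CPM in the IPs against 737 and 636 CPM in the Inputs. The groups were well apart, and the ratios of the replicates, -0.94 and -0.89 on the log2 scale, differed by 0.05. With a log2 fold change of -0.92 ± 0.26 (SE, adjusted p = 0.0426 in edgeR, 95% interval -1.53 to -0.31), a fold of 0.529, its position was at the 16.4th percentile of all genes. The call of *TPI1* turned on the scaling and on a single library. It was depleted with upper-quartile scaling (-1.09, where 10.5% of all genes were depleted), with library size alone (-1.52, 22.2%), with the *ORC1* row left out (-1.01, 9.38%) and without Input replicate 2 (-1.16, 11.9%), with adjusted p values from 0.00502 to 0.0376 in edgeR. It did not pass the adjusted p with size factors of the RLE type (0.0523), with no count filter (0.152), without IP replicate 1 (0.143), without IP replicate 2 (0.194) or without Input replicate 1 (0.0878).

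In the late phase, *GAPDH* oxidises glyceraldehyde 3-phosphate and makes NADH (ENSG00000111640, chromosome 12 from 6534512 to 6538374). It had 2826 and 2369 CPM in the IPs against 3448 and 3318 CPM in the Inputs. Both IPs were lower than both Inputs, by ratios of -0.29 and -0.49 on the log2 scale. The edgeR fit gave -0.38 ± 0.29 (SE, adjusted p = 0.377), with a 95% interval from -1.07 to 0.31. The fitted value was below 0 in all 14 alternatives, from -0.99 with library size alone to -0.26 without IP replicate 2. The interval spans both no difference and the fold change minimum of -1. An antisense gene in GENCODE v44 covers 17.6% of the exonic bases of *GAPDH*, and it held 0 counts in every library.

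*PGK1*, phosphoglycerate kinase 1, makes the first ATP of the late phase (ENSG00000102144, chromosome X from 77910739 to 78129295). It had 941 and 875 CPM in the IPs against 525 and 727 CPM in the Inputs. The ratios, 0.84 in replicate 1 and 0.27 in replicate 2, differed by 0.58, the widest gap among the 10 genes, and the Inputs differed more than the IPs. The log2 fold change was 0.54 ± 0.28 (SE, adjusted p = 0.209 in edgeR). *ATP7A* and C4orf46P2, on the same strand, together overlap 1.78% of the exonic bases of *PGK1*.

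*PGAM1*, phosphoglycerate mutase 1 (ENSG00000171314, chromosome 10 from 97426191 to 97433444), had the fewest reads of the 10, with 64.7 and 47.2 CPM in the IPs against 79.6 and 57.3 CPM in the Inputs. The groups overlapped, although both replicates gave nearly the same ratio (-0.30 and -0.28). Its log2 fold change was -0.29 ± 0.27 (SE, adjusted p = 0.476 in edgeR).

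*ENO1*, enolase 1, makes phosphoenolpyruvate (ENSG00000074800, chromosome 1 from 8861000 to 8879190, minus strand, the other 9 genes being on the plus strand). It had 5677 and 4767 CPM in the IPs against 3588.5 and 3922 CPM in the Inputs, the most of the 10 genes in every library. The IPs were above the Inputs, and the log2 fold change was 0.48 ± 0.30 (SE, adjusted p = 0.289 in edgeR).

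*LDHA*, the A subunit of lactate dehydrogenase (ENSG00000134333, chromosome 11 from 18394560 to 18408425), had 672 and 603 CPM in the IPs against 1084 and 1078 CPM in the Inputs. The Inputs nearly matched each other and both IPs were far below them. With -0.76 ± 0.26 (SE, adjusted p = 0.0746 in edgeR, 95% interval -1.37 to -0.15) it missed the adjusted p threshold in edgeR and passed it in DESeq2 (-0.79, adjusted p = 0.0217), as did *TPI1* (-0.95, adjusted p = 0.00620). Of the 13225 genes to which DESeq2 gave an adjusted p, 28.6% passed. *LDHA* was depleted with scaling by library size alone (-1.37, adjusted p = 0.00672 in edgeR). Past the adjusted p alone were 4 of the 10 genes in that setting (33.4% of all genes) and 2 with upper-quartile scaling (24.4%).

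**Figure D2:**
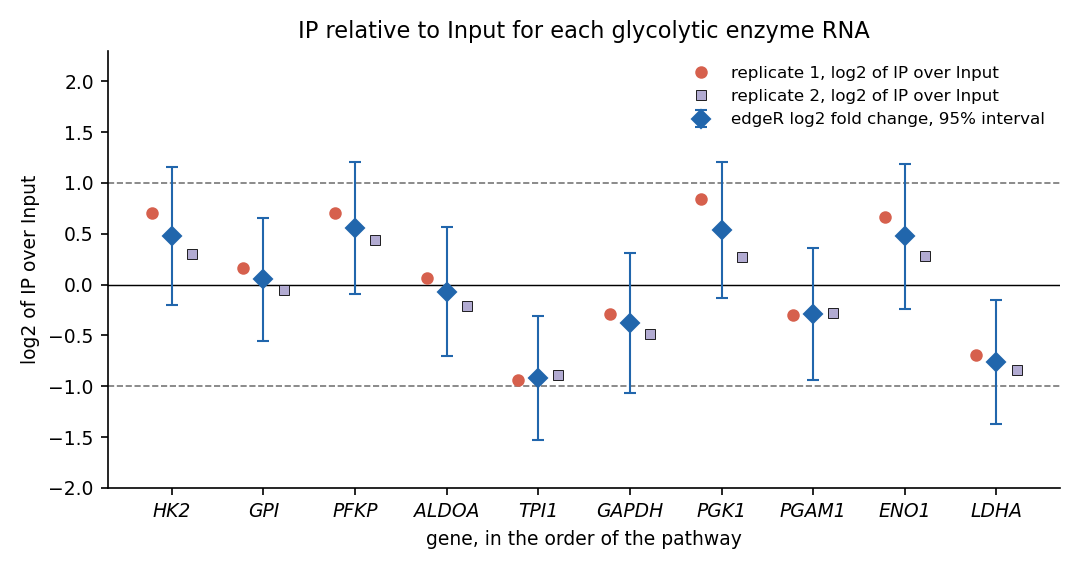
Log2 of IP over Input for each glycolytic enzyme RNA in the order of the pathway. Diamonds with bars give the edgeR log2 fold change with its 95% interval, circles and squares the ratios of replicates 1 and 2 from TMM-scaled CPM, and dashed lines the fold change minimum of 1 and -1. The interval of *TPI1* and that of *LDHA* lie below 0 without correction over all genes, and no diamond passes a dashed line.

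Across the 10 genes the replicate ratios kept nearly the same order (Spearman rho = 0.90 over 10 genes), and their median difference in size, 0.24 on the log2 scale, was close to the 0.27 of all genes tested. Replicate 1 gave the higher ratio for 8 of the 10. The early and the late phase did not separate, since each held genes above and below 0.

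Levels can be compared between genes only per length. Per kilobase of the canonical transcript, *GAPDH* was first in both Inputs (2683 and 2582 CPM per kb), followed by *ENO1* (2015 and 2202), *ALDOA* (740.2 and 776), *TPI1* (545 and 471), *LDHA* (484 and 481), *GPI* (158 and 180.2), *PFKP* (139 and 187), *PGK1* (109 and 151), *PGAM1* (44.1 and 31.8) and *HK2* (16.5 and 25.6). The range of the 2 Inputs overlapped between *TPI1* and *LDHA*, between *GPI* and *PFKP* and between *PFKP* and *PGK1*, although *PFKP* was above *PGK1* within each Input. Per kilobase of all annotated exons *TPI1* (273 and 236) was apart from *LDHA* (179.9 and 179), and *PGK1* (96.5 and 134) was above *GPI* (61.0 and 69.6) and *PFKP* (46.8 and 63.0). In both IPs, per kilobase of the canonical transcript, *ENO1* came first (3187 and 2677 CPM per kb) and *GAPDH* second (2199 and 1843). That order depended on the length used as well: per kilobase of all annotated exons, *GAPDH* came first in the IPs too (1179 and 989, against 1088 and 914 for *ENO1*). The shift between the pair itself does not depend on length or scaling. The log2 ratio of *GAPDH* to *ENO1* counts was -1.01 in both IPs and -0.06 and -0.24 in the Inputs, which did not overlap. With 2 libraries against 2, a two-sided exact permutation test of one value cannot give a p below 0.333.

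The 10 genes were also set beside the length of their coding sequence, which over all 12534 tested protein-coding genes followed log2 fold change at Spearman rho = 0.59. Over the 10 glycolytic genes rho was 0.77, with 0.79 in replicate 1 and 0.89 in replicate 2. It was between 0.65 and 0.89 when 1 library was left out. The genes share their libraries, and 10 genes give a rough value. Sorted by coding length, the 4 shortest were *TPI1* (750 bases), *PGAM1* (765), *LDHA* (999) and *GAPDH* (1008), and all 8 of their replicate ratios were below 0, between -0.94 and -0.28. The other 6, from *PGK1* (1254) to *HK2* (2754), had ratios between -0.21 and 0.84. This division was made after the values were seen. Among all protein-coding genes in the same ranges of length, the median log2 fold change was -0.30 for the 2054 with 750 to 1098 coding bases and 0.17 for the 5922 with 1101 to 2754.

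Each gene was then compared with the median of the genes in its decile of coding length. The distances ran from -0.40 (*TPI1* and *LDHA*) to 0.56 (*PGK1*) with a median of -0.02. Within the interquartile range of their decile lay 8 of the 10 genes. By definition that range holds about as many genes of a decile as lie outside it. *PGK1* (log2 fold change 0.54) and *ENO1* (0.48) were above the upper quartile of their decile, 0.40. *ENO1* lay 0.50 above the median of its decile, while *HK2*, with the longest coding sequence of the 10, was 0.17 below that of its own. *ALDOA* (-0.05) and *GPI* (0.01) were next to theirs. With the length of the whole transcript rho was 0.61 over the 10 genes, with that of the 3′ untranslated region 0.20, with GC content of the coding sequence 0.13, and with Input level per kilobase -0.36. Over all 12534 tested protein-coding genes the same values, in that order, were 0.26, -0.08, -0.06 and 0.02.

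**Figure D3:**
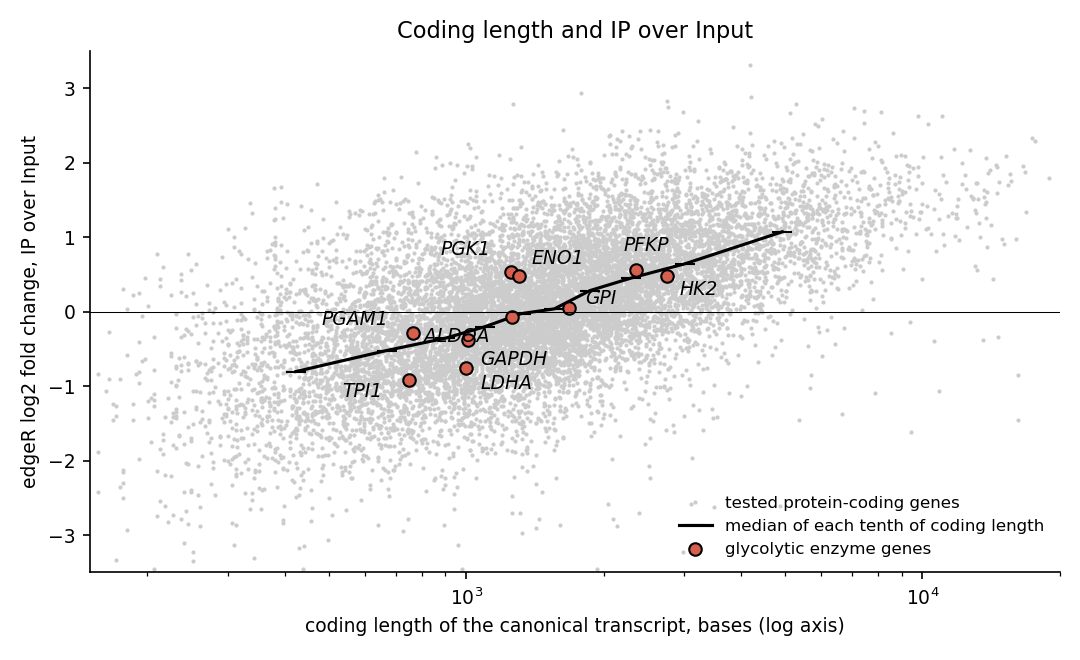
EdgeR log2 fold change of IP over Input against coding length (log axis, bases of the canonical transcript). Grey dots are 12517 of the 12534 tested protein-coding genes, the others being outside the axes, the black line joins the medians of deciles of coding length, and red circles are the 10 glycolytic genes. The red circles run from *TPI1*, *LDHA* and *PGAM1* at the lower left to *PFKP* and *HK2* at the upper right.

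The study described tandem GAA repeats in RNAs that it found with ORC1. It found them by a motif search over the longest transcripts, and reports that ORC1 does not bind RNA through them. The exact strings counted here are a different measure from that motif. GAAGAAGAA, searched on the RNA strand, was in the canonical transcript of 0 of the 10 genes and of 14.8% of all tested protein-coding genes. The shorter GAAGAA, which GAAGAAGAA contains, was in the coding sequence of 7 of the 10 and of 70.5% of all tested protein-coding genes. *PGK1* held it 4 times, *LDHA* 3 times, *PFKP* and *ALDOA* 2 times, *GPI*, *PGAM1* and *ENO1* 1 time, and *HK2*, *TPI1* and *GAPDH* not at all. The 3 windows of *LDHA* and the first of *PGK1* are shown, since the 2 genes with the most matches lay on opposite sides of 0 with TMM scaling. Each has 9 coding bases on either side and GAAGAA in capitals.
LDHA, coding bases 43 to 48: cttctaaagGAAGAAcagaccccc
LDHA, coding bases 792 to 797: gagtataatGAAGAAtcttaggcg
LDHA, coding bases 948 to 953: ggcccgtttGAAGAAgagtgcaga
PGK1, coding bases 87 to 92: tgttcctatGAAGAAcaaccagat

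Most steps of glycolysis have more than 1 gene, and 20 further enzyme genes of the pathway were listed. Of these, 12 were tested, 2 were enriched and 0 depleted (10.5% and 8.30% of all genes tested), with a median log2 fold change of 0.22. The 8 that were not tested, among them the germ-cell genes *GAPDHS*, *PGK2* and *LDHC*, held at most 11 counts each over the 4 libraries. Without correction, 5 of the 12 had a p below 0.05 in edgeR (38.8% of all genes tested), and DESeq2 and limma voom also gave 0 depleted.

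For the phosphorylation of glucose, *HK1*, the widely expressed hexokinase, had 245 and 260.1 CPM in the IPs against 115 and 143 CPM in the Inputs. Both IPs were far above both Inputs, but at 0.97 ± 0.24 (SE, adjusted p = 0.0320 in edgeR) it stopped short of the fold change minimum. *HKDC1*, a further hexokinase gene, was enriched at 1.63 ± 0.39 (SE, adjusted p = 0.0277 in edgeR), from 3.67 and 7.53 CPM in Input to 14.2 and 20.1 CPM in IP. It was not called with library size alone (1.03), with upper-quartile scaling (1.45), without IP replicate 1 (1.86) or without IP replicate 2 (1.35). *ADPGK*, whose enzyme phosphorylates glucose with ADP, was not called (-0.59 ± 0.21). The coding sequences of *HK1*, *HK2* and *HKDC1* are all 2754 bases long and those of *HK2* and *HK1* are 72.9% identical, yet relative to *HK1* the log2 level of *HK2* was -0.70 and -0.55 in IP and -0.32 and 0.02 in Input, without overlap.

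Phosphofructokinase is encoded by *PFKM*, *PFKL* and *PFKP*, named for muscle, liver and platelet. *PFKM* was enriched, at 1.02 ± 0.27 (SE, adjusted p = 0.0356 in edgeR), with 466 and 360.4 CPM in the IPs against 186 and 222 CPM in the Inputs. It was not called in 10 of 14 alternatives, in which its values ran from 0.40 (library size alone) to 1.19 (without IP replicate 2). *PFKL* was at 0.03 ± 0.23 (SE, adjusted p = 0.939 in edgeR) with the same coding length of 2343 bases. *PFKP*, at 0.56, lay between them. The log2 ratio of *PFKP* to *PFKL* was 2.55 and 2.62 in IP and 1.97 and 2.14 in Input, and that of *PFKP* to *PFKM* was 0.34 and 0.88 in IP and 0.97 and 1.14 in Input.

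*LDHA* and *LDHB*, the subunits that form the lactate dehydrogenase tetramer, lay on opposite sides of 0 with TMM scaling, though not with library size alone, which put *LDHB* at -0.12. Their coding sequences are 999 and 1005 bases long and 68.1% identical. *LDHB* had 1885 and 1347 CPM in the IPs against 1339 and 966 CPM in the Inputs, a log2 fold change of 0.49 ± 0.32 (SE, adjusted p = 0.306 in edgeR), against -0.76 for *LDHA*. A gene that is not in the count table overlaps 33.4% of the exonic bases of *LDHB*. The log2 ratio of *LDHA* to *LDHB* counts was -1.49 and -1.16 in IP and -0.30 and 0.16 in Input. It was lower in IP by 1.18 in replicate 1 and by 1.32 in replicate 2, and the groups did not overlap. This pair was singled out after the values were seen, and leaving out 1 library moved the difference of the fitted log2 fold changes between -1.50 and -1.03. The log2 ratio of *HK2* to *HKDC1* counts was lower in IP by a like amount, with differences of -1.24 in replicate 1 and -1.12 in replicate 2.

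*PKM*, pyruvate kinase, which completes the pathway and is not among the 10, had 4878 and 3809 CPM in the IPs against 2163 and 2252 CPM in the Inputs. Both IPs were far above both Inputs, and the log2 fold change in IP of 0.98 ± 0.30 (SE, adjusted p = 0.0579 in edgeR) was just outside both thresholds. *ALDOC* (0.18), *ENO2* (0.07), *ENO3* (0.26) and *LDHD* (0.15) had log2 fold changes with SE from 0.37 to 0.46 and were not called. Not every pair from the same step separated the groups as those of *HK2*, *PFKP* and *LDHA* did. The count ratios of *ALDOA* to *ALDOC*, *ENO1* to *ENO2* and *ENO1* to *ENO3* overlapped between IP and Input. How often a pair of genes separates the groups was not tested over all genes. *BPGM*, which makes 2,3-bisphosphoglycerate, was at -0.82 ± 0.36 (SE, adjusted p = 0.138 in edgeR).

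**Figure D4:**
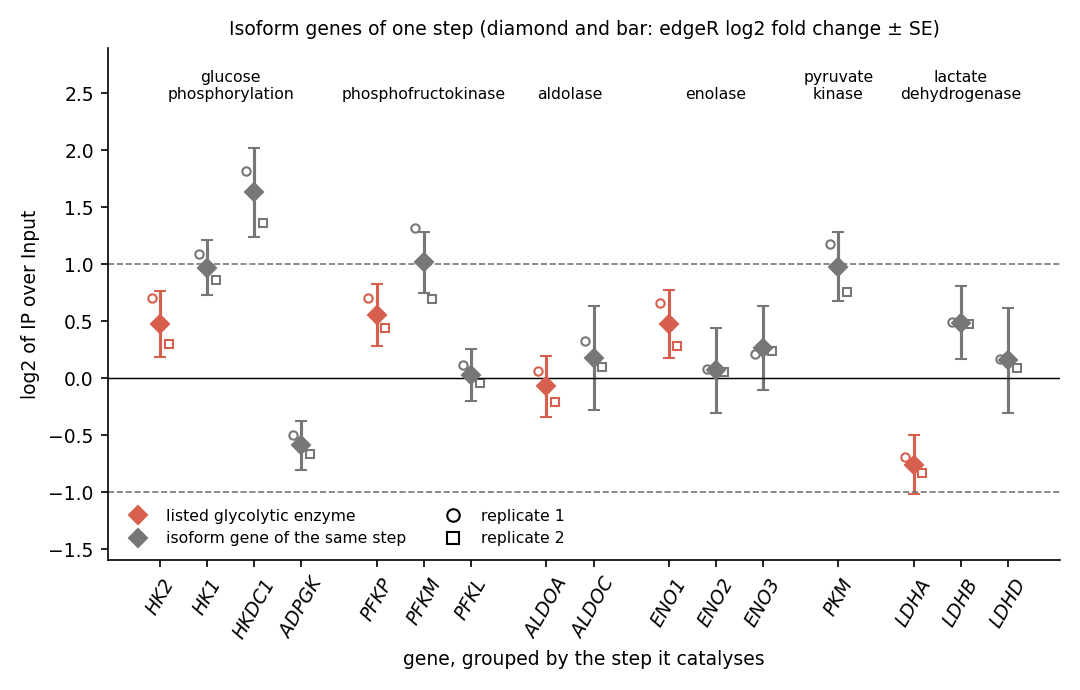
Log2 of IP over Input for those of the 10 glycolytic genes whose step has further tested genes (red), and for those further genes and *PKM* (grey). Diamonds with bars give the edgeR log2 fold change ± SE, open circles and squares the ratios of replicates 1 and 2, and dashed lines 1 and -1. *LDHA* lies below 0 and *LDHB* above it in both replicates, and *HKDC1* is the highest gene of the plot.

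Of 56 genes in the pathways around glycolysis, 50 were tested, and the same test called 5 of them, where 18.8% of all genes tested were called in either direction, 10.5% enriched and 8.30% depleted. Transport and regulation of glycolysis (16 genes, 15 tested) had 0 enriched and 0 depleted genes in edgeR, DESeq2 and limma voom, 2 with an unadjusted p below 0.05 in edgeR (38.8% of all genes), and a median log2 fold change of -0.30. In that list *SLC16A1* (-0.06 ± 0.26) and *SLC16A3* (-0.44 ± 0.23), lactate transporters of the plasma membrane, had the highest Input levels. With the replicate block 2 genes of the list were depleted, *PDK1* and *SLC16A7*, named here after their values were seen, where 13.4% of all genes were depleted in that fit. Among 10 genes of the pentose phosphate pathway, which makes NADPH and ribose from glucose 6-phosphate, 9 were tested and 2 depleted, *RPE*, ribulose-phosphate epimerase (-1.59 ± 0.23), and *PRPS1*, which makes phosphoribosyl pyrophosphate (-1.19 ± 0.25), with edgeR adjusted p values of 0.0107 and 0.0198. Neither was called without IP replicate 1 (-1.47 and -1.41), and *PRPS1* was not called without IP replicate 2 (-0.99). *TKT* (0.39) and *PGD* (0.10), with the highest Input levels of the list, were not called.

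All 23 genes of pyruvate dehydrogenase and the tricarboxylic acid (TCA) cycle were tested, with 1 enriched, 2 depleted and a median of 0.23. *SUCLA2*, a subunit of succinyl-CoA ligase, was enriched at 1.52 ± 0.28 (SE, adjusted p = 0.0153 in edgeR), with 144 and 106 CPM in the IPs against 50.9 and 36.6 CPM in the Inputs. It was not called with library size alone (0.91) or without IP replicate 1 (1.28). *SDHC* (-2.05 ± 0.26, adjusted p = 0.0105 in edgeR) and *SDHD* (-2.28 ± 0.44, adjusted p = 0.0169), the membrane anchors of succinate dehydrogenase with 510 and 480 coding bases, were depleted in each of the 14 alternatives too. *SDHA*, its catalytic subunit with 1995 coding bases, named after its values were seen, was at 0.93 ± 0.24 (SE, adjusted p = 0.0334 in edgeR). *MDH2* (0.08) and *CS* (-0.73), with the highest Input levels, were not called. With the replicate block 2 genes of the list were enriched, *SUCLA2* and, named after its values were seen, *OGDH* (13.4% of all genes). Of 7 gluconeogenesis genes, 3 were tested and 0 were called in edgeR, DESeq2 or limma voom. An unadjusted p below 0.05 was found for 2 of the 3 (38.8% of all genes), and 1, *G6PC3* (-0.93 ± 0.25, adjusted p = 0.0384 in edgeR), passed the adjusted p alone. *PCK2* was at 0.22 ± 0.25. Over the 62 tested genes outside the 10, log2 fold change and coding length gave a Spearman rho of 0.48.

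**Figure D5:**
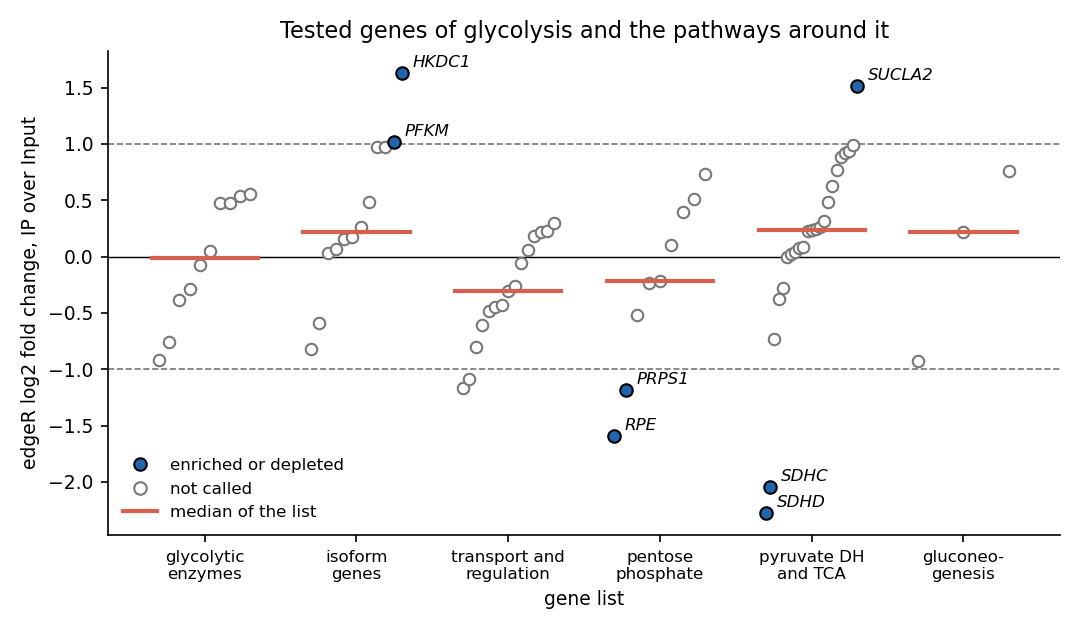
EdgeR log2 fold change of IP over Input for each tested gene of the 10 glycolytic enzymes and of 5 lists around them. Filled circles were enriched or depleted, open circles were not called, red bars are list medians, and dashed lines mark 1 and -1. The glycolytic enzymes show no filled circle, and the 7 filled circles are *HKDC1*, *PFKM*, *SUCLA2*, *RPE*, *PRPS1*, *SDHC* and *SDHD*.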

How the data were processed

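RNA of nuclear immunoprecipitates and Inputs was measured by sequencing after ribosomal RNA depletion (TruSeq Stranded Total RNA). The authors deposited unnormalized read counts for each Ensembl gene, made by trimming with Trimmomatic, alignment with STAR to hg19, removal of reads on GL contigs and counting with featureCounts. The release of the annotation, the strand setting and how multiply aligned reads were handled are not given in the sources used here. Symbols, coordinates, lengths and sequences come from GENCODE v44 on GRCh38, another build than that of the counts, joined by gene identifier. The canonical transcript is the one GENCODE marks.

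IP was compared with Input across the whole table with edgeR 4.0.16 in R 4.3.3 (quasi-likelihood test, robust, TMM scaling, filterByExpr, group as the only term). P-values were adjusted over the 14645 genes tested. The F statistic and the fold change gave standard errors and 95% intervals. Replicate ratios used TMM-scaled CPM plus a pseudocount of 0.5. Input numbers name the RIP replicate they belong to in the labels, and deviations from the group means of same-numbered libraries correlated at r = 0.647. The replicate ratios therefore use the numbers as pairing, as does the fit with a replicate block, run as an alternative. The main fit leaves the pairing out, so its standard errors, intervals and p-values include differences that the libraries of a replicate share. No label says that replicates are separate cultures, so p-values measure the spread between these libraries. Reads carry no molecular identifiers.

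The 10 genes and the gene lists were chosen with earlier results of these data known. All 10 genes, *ORC1*, all tested isoform genes, called genes of the other lists with their 2 highest by Input level, and the most counted pseudogene per gene are named. A gene of the isoform list is not reported here. The fit was tested on simulated data. DESeq2 1.42.0 and limma voom (limma 3.58.1) were run as alternatives.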

Additional observations from a re-analysis of the deposited data

How the results depend on the processing

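In all 14 alternatives to the main fit, 0 of the 10 glycolytic genes were enriched. Depleted members numbered 2 with library size alone (*TPI1* and *LDHA*) and 1 with upper-quartile scaling, with the *ORC1* row left out and without Input replicate 2 (*TPI1* each time), so that leaving out 1 library gave 0 to 1. Members past the adjusted p alone numbered 5 with the replicate block, 4 with library size alone, 2 each in DESeq2 and with upper-quartile scaling, 0 with RLE size factors and with no count filter, and 0 to 1 with 1 library left out. Library size alone moved their median to -0.62 and upper-quartile scaling to -0.19, where the median of all genes moved to -0.59 and -0.16. Relative to all genes it moved only with no count filter, to 0.33, where the genes tested rose to 31990.

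Library size alone turned the sign of *HK2* (-0.13), *GPI* (-0.55), *PFKP* (-0.046), *PGK1* (-0.075), *ENO1* (-0.14), *PFKL* (-0.57), *ALDOC* (-0.41), *ENO2* (-0.52), *ENO3* (-0.33), *LDHB* (-0.12), *LDHD* (-0.44), *TKT* (-0.22), *PGD* (-0.50), *MDH2* (-0.52) and *PCK2* (-0.38). Upper-quartile scaling turned *GPI* (-0.12), *PFKL* (-0.14), *ENO2* (-0.10), *LDHD* (-0.015), *PGD* (-0.070) and *MDH2* (-0.090), a minimum of 1 CPM in 2 libraries *PFKL* (-0.0013), and removal of the *ORC1* row *GPI* (-0.027), *PFKL* (-0.045) and *MDH2* (-0.0070). With 1 library left out, values on both sides of 0 were given by *GPI* (-0.068 to 0.066), *ALDOA* (-0.18 to 0.028), *PFKL* (-0.12 to 0.079), *ALDOC* (-0.37 to 0.76), *ENO2* (-0.39 to 0.42), *LDHD* (-0.080 to 0.31), *PGD* (-0.14 to 0.24), *SLC16A1* (-0.28 to 0.13) and *MDH2* (-0.14 to 0.15).

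Among the lists, enriched isoform genes numbered 1 with RLE size factors, no count filter, the CPM minimum, DESeq2 and the *ORC1* row left out, 0 with the upper quartile or library size alone, and 0 to 2 with 1 library left out. Depleted isoform genes numbered 2 with library size alone (*ADPGK* at -1.20 and *BPGM* at -1.42) and 0 to 1 with 1 library left out. Depleted genes of transport and regulation numbered 3 with library size alone (among them *SLC16A3* at -1.04), 2 with the replicate block, 1 with no count filter and 0 to 1 with 1 library left out. Enriched TCA genes numbered 0 with library size alone, 2 with the replicate block and 0 to 3 with 1 library left out. Depleted TCA genes numbered 3 with library size alone, where *CS* (-1.33) joined *SDHC* and *SDHD*. Depleted pentose phosphate genes numbered 3 with library size alone and 0 to 2 with 1 library left out. With library size alone 22.2% of all genes were depleted. *G6PC3*, of the gluconeogenesis genes, was depleted with upper-quartile scaling, library size alone and the *ORC1* row left out (1 gene each), and 0 to 1 genes with 1 library left out. The replicate block changed no other call among the genes named. A left-out library leaves 1 in its group, assumed to vary like the other group.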
